A study of Homo sapiens with 6 samples.

Results

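Small nuclear RNA (snRNA) features were taken from the deposited gene table of a PRO-seq study. They are the rows of biotype snRNA, together with the row for RN7SK, that reached at least 10 normalized reads in at least 2 of the 6 libraries after repeated lines were dropped. There were 107 of them among 504 snRNA rows and 25827 features in all, and the remaining 397 snRNA rows were below that level. By symbol they divided into 17 RNU genes with RN7SK counted among them (of 21 rows), 19 variant U1 features (of 21), 56 pseudogene copies with a trailing P number (of 436) and 15 rows with clone names only (of 26).

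In PRO-seq, polymerases at work in permeabilized cells extend their transcripts, and that new RNA is sequenced, so a value stands for nascent transcription and not for the stock of mature RNA. The cells were of the human line SBC-3, from a small cell lung cancer, unmodified apart from transfection with siRNA at 10 nM, and they were harvested 72 h later. The groups were siSFPQ-2 and siSFPQ-3, given either of 2 siRNAs against SFPQ and labelled as a knockdown, and siCtrl, given a control siRNA and labelled wild type, with n = 2 libraries each. The title of the series concerns how SFPQ, a nuclear RNA-binding protein of paraspeckles, acts on microRNA production during transcription.

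snRNAs are short, non-polyadenylated RNAs of the nucleus. U1, U2, U4, U5 and U6 form the major spliceosome, U11, U12, U4atac and U6atac take the corresponding places in the minor spliceosome, U7 directs histone mRNA 3′ end cleavage, and 7SK RNA holds the elongation factor P-TEFb inactive. RNA polymerase II transcribes most of these genes and the Integrator complex cleaves their transcripts, whereas U6, U6atac and 7SK are made by RNA polymerase III. Many near-identical copies of U1, U2 and other snRNAs lie in the human genome, some active and most annotated as pseudogenes.

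The libraries held between 12072813 and 18475158 reads, and 1 read was worth between 0.797 and 1.11 normalized reads. Nascent signal over SFPQ itself was 1825 and 1972 normalized reads in siSFPQ-2, 1922 and 2466 in siSFPQ-3, against 2294 and 2435 in siCtrl. It was not called (log2 fold change -0.22, adjusted p = 0.137), and as siRNAs act on the finished mRNA this signal does not measure the knockdown. Of the 10 small cell lung cancer genes looked up, 5 were tested, namely YAP1, the highest, SYP, DLL3, POU2F3 and NEUROD1. The neuroendocrine gene SYP had 226 to 283 normalized reads in siCtrl and 187 to 412 in siSFPQ. DLL3 had 124 to 130 in siCtrl and 57.7 to 85.6 in siSFPQ, and NEUROD1 had 27.1 to 31.0 and 11.1 to 25.8. CHGA, also neuroendocrine, reached at most 5.54 normalized reads. None of 5 immune, 2 of 5 fibroblast and 1 of 5 endothelial markers were tested. The summed level of the fibroblast markers was 411 to 582 in siSFPQ and 224 to 255 in siCtrl libraries, mostly from COL1A1. COL1A2, the other one tested, overlapped between groups, at 21.3 to 56.1 in siSFPQ and 22.2 to 27.9 in siCtrl. The tested endothelial marker, TEK, had 88.2 to 145 in siSFPQ and 38.3 to 48.7 in siCtrl. The part of such markers in any snRNA result was not tested.

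One library stood apart for these features. In siSFPQ-3 replicate 1, 90 of the 107 snRNA features were above their value in siSFPQ-3 replicate 2, where 10751 of all 21773 tested features were. The median log2 ratio of replicate 1 over replicate 2 was 0.57 for snRNA features in siSFPQ-3, 0.22 in siSFPQ-2 and 0.036 in siCtrl, against -0.0047, -0.0010 and 0.030 for all tested features. For tested snoRNA features the median in siSFPQ-3 was 0.23. The highest of all 6 libraries was siSFPQ-3 replicate 1 for 31 of the 107 snRNA features, 52 of 153 snoRNA features and 3086 of all 21773. RN7SL2, a signal recognition particle RNA gene outside the set, had 7489 normalized reads in that library and between 267 and 638 in the others. Results that change with it are therefore also given without it. This library was singled out by the values of these same features, so leaving it out lowers many of their estimates by that choice. Calls gained without it are not separate support for a fall.

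**Figure D1:**
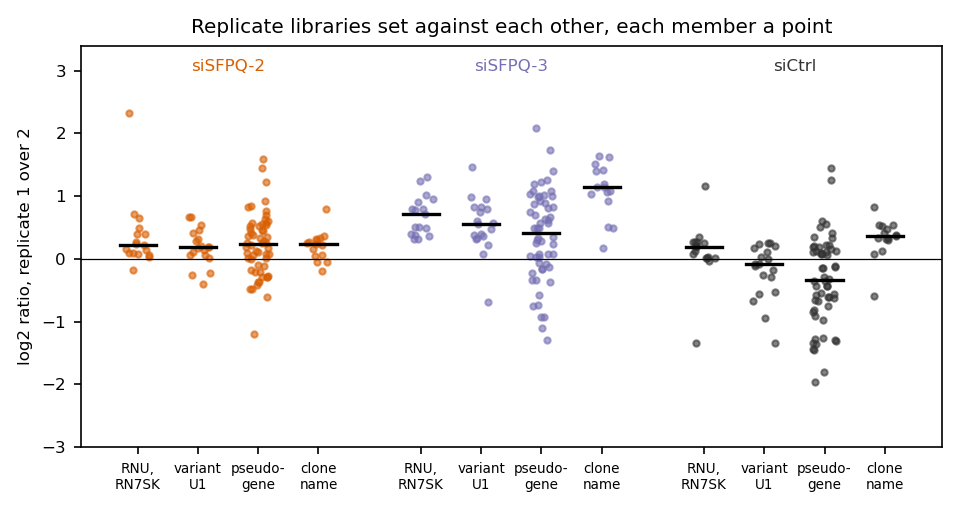
log2 ratio of replicate 1 over replicate 2 (vertical axis, log2(value + 1) scale) for every snRNA feature, by group and class, with a bar at each median. In siSFPQ-3 the medians of all 4 classes lie above 0, from 0.42 for pseudogene copies to 1.15 for clone names.

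Together the 107 features took 0.184 and 0.156% of the normalized total in siSFPQ-2, 0.251 and 0.150% in siSFPQ-3, and 0.239 and 0.250% in siCtrl. The share in siSFPQ-3 replicate 1 was thus at the siCtrl level while the other 3 siSFPQ libraries were lower. In siSFPQ against siCtrl, with both siRNAs averaged, 29 snRNA features fell and 4 rose at an adjusted p under 0.05, by limma's test on log2(value + 1) over the whole table. The share that fell, 27.1%, is near the background, since 23.2% of all tested features fell. The share that rose, 3.74%, was below the background of 24.8%. Rises were also below that background in other small RNA biotypes. Of tested snoRNA features 5.88% rose and 9.15% fell, of miRNA features 10.4% and 19.5%, and of misc_RNA features 17.6% and 10.9%. Estimates were below 0 for 98 of the 107, and their median log2 fold change was -0.51, where that of all tested features was -0.019. Of the features, 35 lay below both siCtrl libraries in all 4 siSFPQ libraries (32.7%, background 31.0%) and 4 lay above both (background 30.3%). The 4 features that reached the level for testing through siCtrl alone had to be among the 35. Of the 4 above, 3 reached it through siSFPQ alone. In a bulk library, fewer cells transcribing a gene and less transcription per cell cannot be told apart.

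Without siSFPQ-3 replicate 1 the fall was called for 66 of the 107 features (61.7%, background 23.9%) and the rise for 4 (background 25.3%), with a median of -0.67. Of the 29 features that fell with all libraries, 28 were among those 66. Leaving out a siCtrl library leaves 1 in that group, assumed to vary like the other groups, and fewer features of the whole table were then called. With siCtrl replicate 1 left out 15 fell (background 11.3%), and with siCtrl replicate 2 left out 7 did (background 11.6%). Without siSFPQ-2 replicate 2, 18 fell (background 19.6%). Of the 33 calls, 5 held without each library in turn and under the other settings tried, namely the falls of RNU4ATAC, RNU5D-2P, RNVU1-3 and RNVU1-4 and the rise of RNU1-125P. RNU1-125P reached the level for testing through siSFPQ alone, so it had to be higher there to be included. No called feature changed sign under any of these.

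With siSFPQ-2 alone 33 features fell and 3 rose (backgrounds 17.9% and 21.2%), and with siSFPQ-3 alone 13 fell and 4 rose (backgrounds 20.4% and 23.0%). Both comparisons use the same siCtrl libraries, and 6 features fell and 3 rose in each. Medians were -0.63 with siSFPQ-2 and -0.38 with siSFPQ-3. With 1 library of the siRNA left, leaving out siSFPQ-3 replicate 1 gave 47 falls with siSFPQ-3 (background 18.7%), and leaving out siSFPQ-2 replicate 2 gave 5 falls with siSFPQ-2 (background 9.11%). The authors' deposited table, for both siRNAs together, had 23 of the features lower and 3 higher at an adjusted p under 0.05, with the same sign as the estimates here for all 107.

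U1 recognizes the 5′ splice site. Its 4 RNU1 genes lie close together on chromosome 1 (GRCh38), from RNU1-1 at chr1:16514122-16514285 to RNU1-2 at chr1:16895980-16896143, each over 164 bases. RNU1-1 had 1415 and 1349 normalized reads in siSFPQ-2, 2653 and 1365 in siSFPQ-3, against 1936 and 1909 in siCtrl. RNU1-3 had 1366 and 1342 normalized reads in siSFPQ-2, 2338 and 1357 in siSFPQ-3, against 1811 and 1572 in siCtrl. In both genes siSFPQ-3 replicate 1 was the highest of all libraries and the other 3 siSFPQ libraries were below both siCtrl libraries. RNU1-2 had 1365 and 1281 normalized reads in siSFPQ-2, 1623 and 1252 in siSFPQ-3, against 1724 and 1631 in siCtrl. RNU1-4 had 1386 and 1296 normalized reads in siSFPQ-2, 1734 and 1323 in siSFPQ-3, against 1768 and 1734 in siCtrl. In RNU1-2 all 4 siSFPQ libraries were lower than siCtrl by a narrow margin, and in RNU1-4 siSFPQ-3 replicate 1 reached the lower siCtrl value. None of the 4 passed with all libraries: the log2 fold changes were -0.25, -0.29, -0.12 and -0.30 for RNU1-1 to RNU1-4, with adjusted p-values of 0.335, 0.0567, 0.597 and 0.0525 by limma. The 95% interval for RNU1-1 ran from -0.69 to 0.20. Without siSFPQ-3 replicate 1 all 4 were called lower, at -0.48, -0.38, -0.32 and -0.39 (adjusted p = 0.00122, 0.00649, 0.023 and 0.00504 by limma).

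A further 7 features stood at the same level, the pseudogene-named copies RNU1-27P and RNU1-28P on chromosome 14 and the variants RNVU1-7, RNVU1-18, RNVU1-27, RNVU1-28 and RNVU1-29. These 11 U1 features had siCtrl means between 1067 and 1922 normalized reads. Copies this alike can share reads, and the sources used here do not state how reads with several matches were counted, so the value of a single copy is uncertain. Summed, the 11 gave 14042 and 13195 normalized reads in siSFPQ-2, 20236 and 13190.1 in siSFPQ-3, against 18321 and 17121 in siCtrl. The ratio of replicate 1 to replicate 2 in siSFPQ-3 was not the same among them. It was 1.94 for RNU1-1, 1.72 for RNU1-3, 2.02 for RNU1-28P, 1.77 for RNVU1-18 and 1.74 for RNVU1-28, and between 1.17 (RNVU1-27) and 1.31 (RNU1-4) for the other 6. That division was seen in the values and was not tested.

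**Figure D2:**
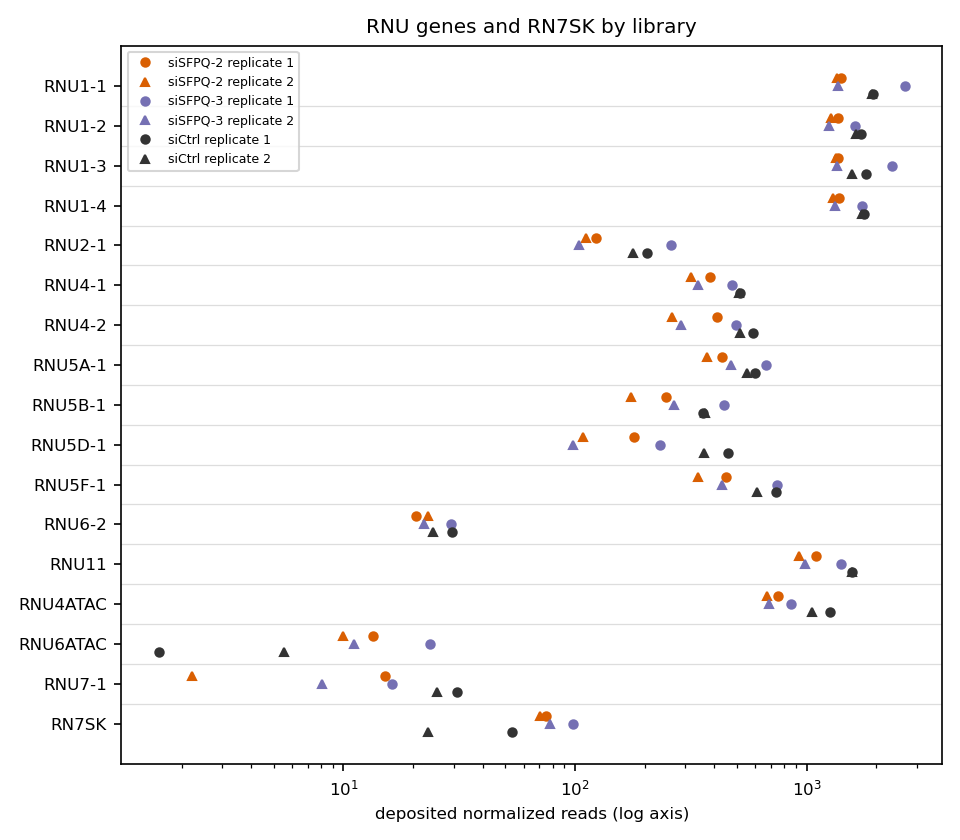
Normalized reads (log axis) of the 16 RNU genes and RN7SK in each library, with siSFPQ-2 and siSFPQ-3 above siCtrl within each gene, circles for replicate 1 and triangles for replicate 2. RNU4ATAC, RNU5D-1 and RNU11 lie left of siCtrl in all 4 siSFPQ libraries, RN7SK and RNU6ATAC lie right of it, and siSFPQ-3 replicate 1 is the highest siSFPQ library for all 17.

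Variant U1 features differ from U1 by base changes, and 17 of the 19 matched a RefSeq gene, all on chromosome 1. Of the 19, 13 fell and none rose (68.4% and 0.0%, backgrounds 23.2% and 24.8%), and all 19 estimates were below 0, with a median of -0.54. With siSFPQ-2 alone 9 fell (47.4%, background 17.9%), and with siSFPQ-3 alone 7 fell (36.8%, background 20.4%). The 5 with a siCtrl mean of 1000 or more had a median of -0.26 and the 14 below it a median of -0.68, a split that was not tested. None of those 5 fell with siSFPQ-3 alone. RNVU1-4 (chr1:120942600-120942763) had 441 and 381 normalized reads in siSFPQ-2, 360.3 and 272 in siSFPQ-3, against 749 and 629 in siCtrl. RNVU1-3 (chr1:148402715-148402875) had 135 and 84.2 normalized reads in siSFPQ-2, 113 and 57.7 in siSFPQ-3, against 285 and 241 in siCtrl. In both, every siSFPQ library was below both siCtrl libraries, with fold changes on the log2 scale of -0.94 (SE 0.14, adjusted p = 0.000336) and -1.49 (SE 0.27, adjusted p = 0.00109) by limma, and each fell with either siRNA alone.

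RNVU1-30 had 154 and 105 normalized reads in siSFPQ-2, 146 and 82.0 in siSFPQ-3, against 224 and 236 in siCtrl. RNVU1-22 had 211 and 248 normalized reads in siSFPQ-2, 169 and 134 in siSFPQ-3, against 285 and 323 in siCtrl. Neither overlapped siCtrl, and on the log2 scale both fell, with -0.95 (adjusted p = 0.00639) and -0.71 (adjusted p = 0.00258) by limma, and RNVU1-22 was lower with siSFPQ-3 (-1.01) than with siSFPQ-2 (-0.41), a difference of -0.60 that did not pass (adjusted p = 0.177). RNVU1-30 was not called without siCtrl replicate 1 (adjusted p = 0.0546 by limma) or siCtrl replicate 2 (0.0721), nor RNVU1-22 without siCtrl replicate 2 (0.0539). Smaller falls were called for RNVU1-2A (-0.65), RNVU1-21 (-0.59), RNVU1-2 (-0.54), RNVU1-7 (-0.40), RNVU1-29 (-0.34) and RNVU1-27 (-0.26). RNVU1-7 had 1300.3 and 1141 normalized reads in siSFPQ-2, 1511 and 1157 in siSFPQ-3, against 1678 and 1680.5 in siCtrl. Its siCtrl libraries were nearly equal and above every siSFPQ library. In RNVU1-2 siSFPQ-3 replicate 1 lay between the siCtrl values. All 6 lost the call without siCtrl replicate 2 (adjusted p between 0.0587 and 0.282 by limma) and 5 of them, not RNVU1-2A, without siCtrl replicate 1 (0.072 to 0.228). RNVU1-2, RNVU1-27 and RNVU1-29 lost it also without siSFPQ-2 replicate 2 or siSFPQ-3 replicate 2 (0.0693 to 0.111).

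The remaining variants were low or scattered. RNVU1-25 (log2 fold change -1.04), RNVU1-24 (-0.99) and RNVU1-26 (-1.44) fell at means of 11.5 ± 2.44, 7.05 ± 2.12 and 4.94 ± 2.48 normalized reads in siSFPQ and 25.1 ± 8.41, 14.8 ± 4.08 and 14.0 ± 0.603 in siCtrl. None of the 3 was called without either siCtrl library (adjusted p between 0.0519 and 0.303 by limma), RNVU1-24 also without any siSFPQ library (0.0652 to 0.0927), and RNVU1-25 also without siSFPQ-2 replicate 1 or siSFPQ-3 replicate 2 (0.0685 and 0.0679). RNVU1-24 and RNVU1-26 reached the level for testing through siCtrl alone, so they had to be lower in siSFPQ to be included at all. RNVU1-1 had 195 and 159 normalized reads in siSFPQ-2, 349.6 and 208 in siSFPQ-3, against 229.5 and 439.8 in siCtrl. RNVU1-17 had 57.0 and 68.7 normalized reads in siSFPQ-2, 151 and 53.7 in siSFPQ-3, against 66.1 and 168 in siCtrl. In both, siCtrl replicate 2 was far above siCtrl replicate 1, and neither passed. RNVU1-15, RNVU1-18, RNVU1-28 and RNVU1-31 did not pass either, with estimates of -0.51, -0.18, -0.23 and -0.29. Without siSFPQ-3 replicate 1 all 6 were called lower, with estimates between -0.86 (RNVU1-17) and -0.38 (RNVU1-18).

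**Figure D3:**
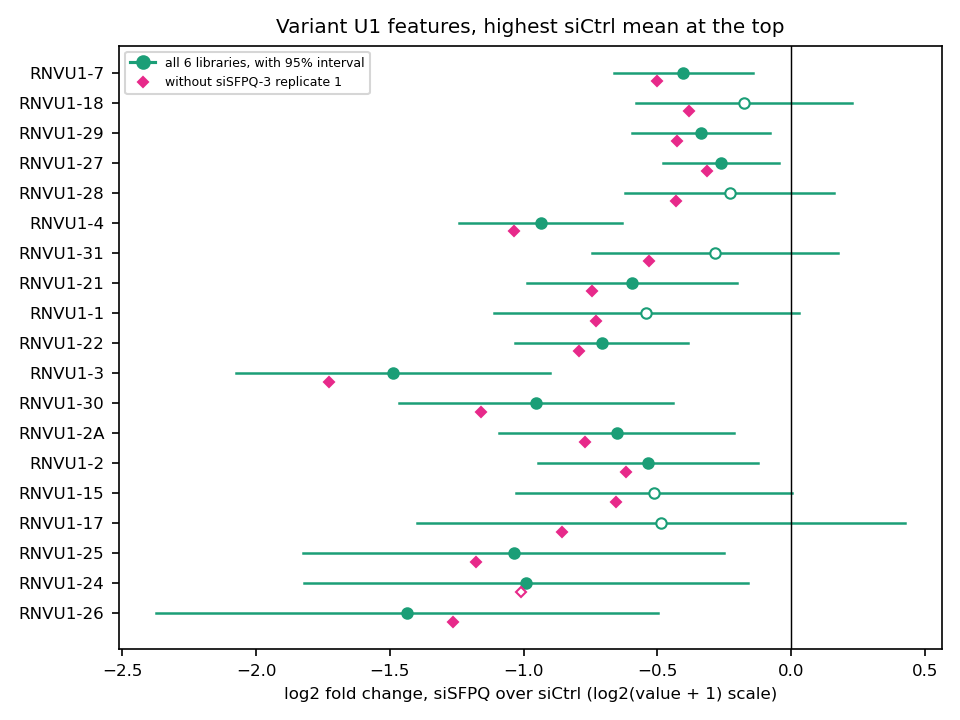
log2 fold change of siSFPQ over siCtrl for the 19 variant U1 features, ordered by siCtrl mean, with the 95% interval of the fit of all 6 libraries and the estimate without siSFPQ-3 replicate 1. Filled symbols passed the threshold: 13 of 19 with all libraries and 18 of 19 without that library.

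U2 pairs with the branch point of introns. RNU2-1 on chromosome 17 had 123 and 112 normalized reads in siSFPQ-2, 260.3 and 104 in siSFPQ-3, against 206 and 178 in siCtrl. In it 3 siSFPQ libraries lay below siCtrl and siSFPQ-3 replicate 1 lay above it, and the gene was not called (-0.46, 95% interval -1.09 to 0.17, adjusted p = 0.207 by limma). Without that library it was called lower (-0.79, adjusted p = 0.00159 by limma). Of the 12 clone-named rows AC024051.1 to AC024051.12, 10 were likewise highest in siSFPQ-3 replicate 1. Their sum was 1501 and 1334 normalized reads in siSFPQ-2, 2837 and 1195 in siSFPQ-3, against 2593 and 2000 in siCtrl. None of the 12 passed with all libraries and 2 fell with siSFPQ-2 alone (16.7%, background 17.9%). Without siSFPQ-3 replicate 1 the median over the 12 was -0.83. The 12 rows may share reads, so they are not taken as separate results. No gene name or snRNA family is given for these rows in the sources used here, so they are not counted as U2. RNU2-63P, the highest of the 6 U2 pseudogene copies, had 352 and 279 normalized reads in siSFPQ-2, 514 and 344 in siSFPQ-3, against 468 and 403 in siCtrl. It was not called with all libraries (-0.26) and was called lower without siSFPQ-3 replicate 1 (-0.40, adjusted p = 0.0268 by limma).

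U4 keeps U6 inactive until the spliceosome is assembled. RNU4-2 (chr12:120291759-120291903) had 411 and 262 normalized reads in siSFPQ-2, 498 and 288 in siSFPQ-3, against 589.8 and 516 in siCtrl. Its neighbour RNU4-1 (chr12:120293093-120293237) had 382 and 316 normalized reads in siSFPQ-2, 476 and 338 in siSFPQ-3, against 514 and 509.6 in siCtrl. With siSFPQ-2 alone both genes were called lower, and with siSFPQ-3 alone neither was. All 4 siSFPQ libraries were below siCtrl in both genes, and both fell on the log2 scale, RNU4-2 with -0.64 (SE 0.22, adjusted p = 0.0317) and RNU4-1 with -0.45 (SE 0.15, adjusted p = 0.0248) by limma. Neither call held without siCtrl replicate 1 (adjusted p = 0.216 for RNU4-2 and 0.141 for RNU4-1 by limma), siCtrl replicate 2 (0.110 and 0.135) or siSFPQ-2 replicate 2 (0.0674 and 0.0578). RNU4-4P, a copy inside ECT2, also fell (-0.64, adjusted p = 0.0366 by limma), and none of the other 5 U4 copies did. That call was lost without either siCtrl library, siSFPQ-2 replicate 2 or siSFPQ-3 replicate 2 (adjusted p between 0.0657 and 0.282 by limma). The 8 U4 features summed to 1061 and 752 normalized reads in siSFPQ-2, 1297 and 846 in siSFPQ-3, against 1476 and 1408 in siCtrl, which did not overlap.

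U5 aligns the exons at the catalytic centre. Its genes lie in 2 places, RNU5F-1 (chr1:44721785-44721902) and RNU5D-1 (chr1:44731069-44731170) on chromosome 1, and RNU5A-1 (chr15:65296051-65296167) and RNU5B-1 (chr15:65304677-65304793) on chromosome 15. RNU5D-1 had 179 and 109 normalized reads in siSFPQ-2, 232 and 98.2 in siSFPQ-3, against 459 and 359 in siCtrl. It was below siCtrl in all 4 siSFPQ libraries and fell (log2 fold change -1.48, SE 0.30, adjusted p = 0.00246 by limma), with -1.53 for siSFPQ-2 and -1.42 for siSFPQ-3. Its adjusted p without siCtrl replicate 1 was 0.0512. RNU5F-1 had 448 and 341 normalized reads in siSFPQ-2, 746 and 431 in siSFPQ-3, against 736 and 610.4 in siCtrl. RNU5A-1 had 430.5 and 369.8 normalized reads in siSFPQ-2, 671 and 474 in siSFPQ-3, against 600.1 and 553 in siCtrl. RNU5B-1 had 248 and 175 normalized reads in siSFPQ-2, 439 and 267 in siSFPQ-3, against 357 and 366 in siCtrl. In these 3 genes siSFPQ-3 replicate 1 was the highest library and the other siSFPQ libraries were below siCtrl. They were called lower with siSFPQ-2 alone (-0.78, -0.53 and -0.79, adjusted p = 0.0206, 0.026 and 0.0185 by limma) but not with siSFPQ-3 (-0.24, -0.03 and -0.077). Without siSFPQ-3 replicate 1 all 3 were called lower over both siRNAs (-0.70, -0.40 and -0.61, adjusted p = 0.000991, 0.0121 and 0.00557 by limma).

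Among the U5 copies, RNU5E-6P, about as high as the genes, had 348 and 250.3 normalized reads in siSFPQ-2, 639 and 309.9 in siSFPQ-3, against 756 and 651 in siCtrl. It fell by 0.95 on the log2 scale (SE 0.24, adjusted p = 0.00764 by limma) with no overlap between groups, but was not called without siCtrl replicate 1 (adjusted p = 0.0955). RNU5D-2P, a 50-base copy on chromosome 9 inside CFAP77, had 33.0 and 25.5 normalized reads in siSFPQ-2, 25.8 and 20.3 in siSFPQ-3, against 86.9 and 79.8 in siCtrl. It was below siCtrl in every siSFPQ library and fell (-1.65, SE 0.24, adjusted p = 0.000314 by limma). RNU5A-8P, the other abundant copy, had 406 and 271 normalized reads in siSFPQ-2, 598 and 386 in siSFPQ-3, against 459.9 and 397 in siCtrl. Its groups overlapped and its estimate was -0.097.

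U6 forms the catalytic core with U2. Of 5 RNU6 genes in the table only RNU6-2 was tested, at 20.5 and 23.3 normalized reads in siSFPQ-2, 29.0 and 22.3 in siSFPQ-3, against 29.5 and 24.4 in siCtrl. Its groups overlapped (-0.18, 95% interval -0.78 to 0.43). RNU6-1, RNU6-7, RNU6-8 and RNU6-9 were below the level for testing, and RNU6-1 had 3.56 and 2.21 in siSFPQ-2, 20.4 and 2.03 in siSFPQ-3, against 1.59 and 3.32 in siCtrl. Of 232 U6 pseudogene rows 3 were tested.

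For the minor spliceosome, RNU4ATAC (chr2:121530880-121531009) had 752 and 672 normalized reads in siSFPQ-2, 860.4 and 689 in siSFPQ-3, against 1257 and 1059 in siCtrl. It fell with either siRNA (-0.70 with siSFPQ-2 and -0.58 with siSFPQ-3) and over both (-0.64, SE 0.12, adjusted p = 0.00147 by limma). RNU11, whose RNA recognizes the 5′ splice site of minor introns, had 1098 and 931 normalized reads in siSFPQ-2, 1408 and 988 in siSFPQ-3, against 1576 and 1569 in siCtrl. It was called lower with siSFPQ-2 alone (-0.64) but not with siSFPQ-3 alone (-0.41). It lay below siCtrl in every siSFPQ library and fell (-0.53, SE 0.14, adjusted p = 0.00894 by limma), a call lost without siCtrl replicate 1 (adjusted p = 0.0772) or siCtrl replicate 2 (0.0762). RNU6ATAC had 13.4 and 9.97 normalized reads in siSFPQ-2, 23.7 and 11.1 in siSFPQ-3, against 1.59 and 5.54 in siCtrl. It rose (1.84, SE 0.49, adjusted p = 0.01 by limma) at these few reads, and it reached the level for testing through siSFPQ alone, so it had to be higher there to be included. It was not called without siCtrl replicate 1 (adjusted p = 0.128 by limma). The 2 tested U4atac copies were not called, and RNU12 was not analysed here.

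RNU7-1 (chr12:6943816-6943878), the gene of U7, had 15.2 and 2.21 normalized reads in siSFPQ-2, 16.1 and 8.1 in siSFPQ-3, against 31.1 and 25.5 in siCtrl. It was called lower with siSFPQ-2 alone (-2.02) but not with siSFPQ-3 alone (-1.22). All siSFPQ libraries were below siCtrl, with a wide spread between siSFPQ replicates, and the fall (-1.62, SE 0.57, adjusted p = 0.0373 by limma) was lost without either siCtrl library, siSFPQ-2 replicate 2 or siSFPQ-3 replicate 2 (adjusted p between 0.0513 and 0.202). RN7SK (chr6:52995620-52995951) had 74.9 and 70.9 normalized reads in siSFPQ-2, 97.9 and 78.0 in siSFPQ-3, against 53.4 and 23.3 in siCtrl. All siSFPQ libraries were above siCtrl, whose replicates differed, and it rose by 1.15 on the log2 scale (SE 0.30, adjusted p = 0.00844 by limma), a call lost without siCtrl replicate 2 (adjusted p = 0.129). Per kilobase of the RefSeq span RN7SK averaged 242 normalized reads in siSFPQ and 115 in siCtrl. On that scale RNU1-1 averaged 10339 in siSFPQ and 11721 in siCtrl. RNU4ATAC averaged 5718 in siSFPQ and 8907 in siCtrl, and RNU2-1 averaged 797 in siSFPQ and 1021 in siCtrl. RNU6ATAC was the lowest of the RNU genes, at 115 in siSFPQ and 28.3 in siCtrl. Of the 6 tested features of 7SK, U6 and U6atac, which include 3 U6 pseudogene copies, 3 rose and none fell (backgrounds 24.8% and 23.2%), and 2 of the 3 rises passed the level for testing through siSFPQ alone. Which polymerase transcribed each feature was not measured.

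Of the 56 pseudogene copies 9 fell and 2 rose (16.1% and 3.57%, backgrounds 23.2% and 24.8%), with a median of -0.53. The 34 U1 copies held 5 of the falls. RNU1-18P had 217 and 159 normalized reads in siSFPQ-2, 188 and 197 in siSFPQ-3, against 316 and 237 in siCtrl. RNU1-19P had 80.2 and 42.1 normalized reads in siSFPQ-2, 66.7 and 40.5 in siSFPQ-3, against 96.4 and 123 in siCtrl. Both were below siCtrl in all siSFPQ libraries (-0.53 and -0.97, adjusted p = 0.0224 and 0.0177 by limma). RNU1-18P was not called without siCtrl replicate 1 (adjusted p = 0.278) or siSFPQ-2 replicate 2 (0.0538), nor RNU1-19P without siCtrl replicate 1 (0.0622) or siCtrl replicate 2 (0.171). RNU2-59P fell at few reads (-1.07), with means of 12.7 ± 4.6 normalized reads in siSFPQ and 26.6 ± 1.55 in siCtrl, and leaving out any library other than siSFPQ-3 replicate 1 ended the call (adjusted p between 0.0516 and 0.186). The other falls, RNU1-89P, RNU1-16P and RNU1-132P, came with overlapping groups. The most abundant copies, RNU1-28P, RNU1-27P, RNU5E-6P, RNU5A-8P and RNU2-63P, included 1 fall, that of RNU5E-6P. RNU1-28P (-0.43) and RNU1-27P (-0.35) were called lower without siSFPQ-3 replicate 1 (adjusted p = 0.0029 and 0.0116 by limma).

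The rises were RNU1-125P and RNU6-1157P. RNU1-125P (chr16:3069523-3069651) had 14.3 and 17.7 normalized reads in siSFPQ-2, 16.1 and 18.2 in siSFPQ-3, against 2.39 and 2.22 in siCtrl, and rose by 2.41 on the log2 scale (SE 0.36, adjusted p = 0.000399 by limma). RNU6-1157P had 6.24 and 15.5 normalized reads in siSFPQ-2, 7.53 and 13.2 in siSFPQ-3, against 2.39 and 3.32 in siCtrl, and rose by 1.52 on the log2 scale (SE 0.48, adjusted p = 0.0229 by limma), losing the call without either siCtrl library, siSFPQ-2 replicate 2 or siSFPQ-3 replicate 2 (adjusted p between 0.0599 and 0.135). Both passed the level for testing through siSFPQ alone. At the edge of that level, the copies just inside were RNU1-124P, RNU2-4P and RNU4ATAC13P, with second highest values of 10.4, 11.95 and 11.95 normalized reads, and those just outside were RNU4-39P and RNU5B-4P, both at 9.97, and RNU2-37P at 9.80. Apart from the AC024051 rows, 3 clone-named features were tested, of which FP325311.1 fell (-0.68, adjusted p = 0.0195 by limma) with overlapping groups.

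Many snRNA features lie inside or across longer genes, whose own reads can enter their counts, since the use of strand is not stated. Of the 90 features with a RefSeq span, 54 overlapped a gene more than 5 times longer, and for 35 that gene was tested. Signs differed in 20 of these 35 pairs and were shared in 15. The longer gene rose in 12 pairs and fell in 3 (backgrounds 24.8% and 23.2%). For 9 features with an estimate below 0 the longer gene rose. As 98 of all 107 snRNA estimates were below 0, these counts are not read as a result about the pairs. RNU4ATAC fell while CLASP1, a microtubule-binding protein gene around it, had 4197 and 4312 normalized reads in siSFPQ-2, 5589.7 and 5508 in siSFPQ-3, against 2662 and 2309 in siCtrl, and rose by 0.97 on the log2 scale (adjusted p = 3.79e-05 by limma). RNU1-19P fell within BMPR1A, a bone morphogenetic protein receptor gene that rose by 1.26 on the log2 scale (adjusted p = 4.12e-06 by limma), with 3414 and 3567 normalized reads in siSFPQ-2, 4131 and 4468 in siSFPQ-3, against 1695 and 1541 in siCtrl. RNU2-59P fell within BTRC, a ubiquitin ligase subunit gene that rose by 0.65 on the log2 scale (adjusted p = 0.00103 by limma).

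Among the other falls with a tested longer gene, that gene was not called for 6 and fell for 1. LINC00623 around RNVU1-4 (-0.035), ECT2 around RNU4-4P (0.14) and SIRT4 across RNU4-1 and part of RNU4-2 (0.19) were not called. RNU7-1 lies in C12orf57, which had 205 and 139.5 normalized reads in siSFPQ-2, 193 and 186 in siSFPQ-3, against 313 and 366 in siCtrl. That gene fell as well (-0.92, adjusted p = 0.00111 by limma), as the only called pair in which both were lower.

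Both rises of pseudogene copies came beside a longer gene that rose. RNU1-125P shares 8 of its 129 bases with the span of IL32, a cytokine gene, which was looked up after the values were seen. IL32 had 340.5 and 411 normalized reads in siSFPQ-2, 257 and 412 in siSFPQ-3, against 38.3 and 45.4 in siCtrl, and rose by 3.04 on the log2 scale (SE 0.19, adjusted p = 1.13e-06 by limma). RNU6-1157P lies inside ARCN1, a coat protein gene that rose by 0.39 on the log2 scale (adjusted p = 0.00789 by limma). The part of the longer gene's reads in the count of the copy was not tested.

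**Figure D4:**
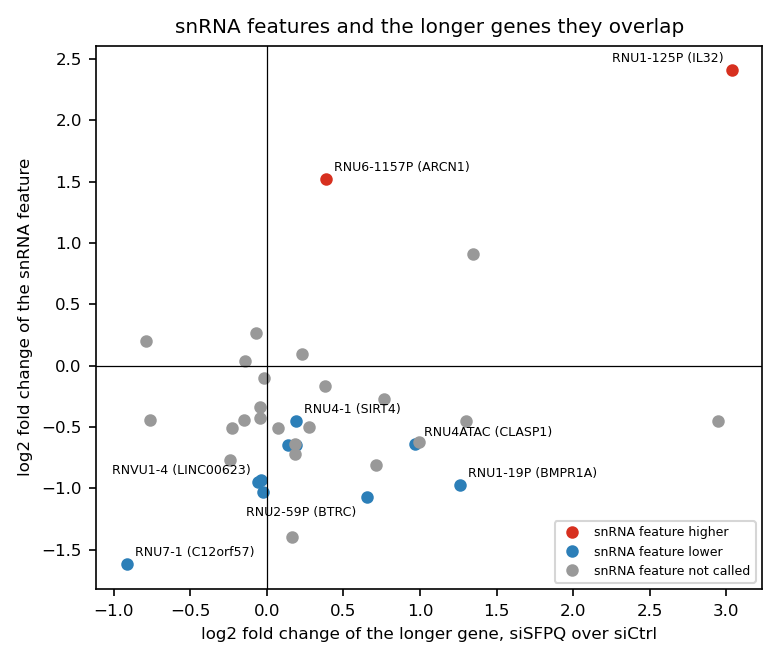
log2 fold change of siSFPQ over siCtrl for 35 snRNA features (vertical axis) and the longest tested gene that overlaps each (horizontal axis), coloured by the call of the snRNA feature. RNU1-125P and IL32 stand far out at the upper right, and RNU4ATAC, RNU1-19P and RNU2-59P lie below 0 while their longer genes lie above it.

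Between the siRNAs, siSFPQ-3 against siSFPQ-2, no snRNA feature was called in either direction by limma (backgrounds 0.0781% higher and 0.023% lower), the smallest adjusted p being 0.177. At an unadjusted p under 0.05 there were 11, and edgeR and DESeq2 also called 0, with 14 and 12 at an unadjusted p under 0.05. A limma fit with the replicate number as a block called 6, though the labels tie no number to a shared culture or batch. Without siSFPQ-3 replicate 2, 7 were called higher in siSFPQ-3 (background 0.22%), where siSFPQ-3 was then replicate 1 alone, the library that stood apart, with its spread taken from the other groups. RNU5A-1 was higher in siSFPQ-3 by 0.50 (95% interval 0.14 to 0.86) and RNVU1-22 lower by 0.60 (-0.98 to -0.23), so differences of that size are not shown to be absent.

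Genes that make and assemble snRNPs, and other small RNA genes of RNA polymerase III, were read from 8 lists, in which 20 of 130 tested rows rose and 29 fell (backgrounds 24.8% and 23.2%). Among SNAPc and the other factors of snRNA promoters 3 of 18 rose and 3 fell, led by POU2F1, the octamer-binding activator (0.79), GTF2F2 (0.35), ZNF143, another activator of these promoters (-0.34), and BRF2, the polymerase III initiation factor of U6-type promoters (-0.41). Of Integrator and the little elongation complex, which take snRNA genes from elongation to 3′ end cleavage, 4 of 24 rose and 5 fell. ELL2 had 1465 and 2163 normalized reads in siSFPQ-2, 1429 and 1942 in siSFPQ-3, against 712 and 716 in siCtrl, and rose by 1.27 on the log2 scale. ZC3H8, a little elongation complex member, had 936 and 764 normalized reads in siSFPQ-2, 967 and 766 in siSFPQ-3, against 2247 and 2078 in siCtrl, and fell by 1.34 on the log2 scale (adjusted p = 1.35e-05 by limma). ELL rose (0.56) and NABP2 fell (-0.55).

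For the 7SK particle and P-TEFb, 2 of 7 rose and 2 fell (backgrounds 24.8% and 23.2%, as for each list below). LARP7, which binds the 3′ end of 7SK, rose (0.53), as did the kinase gene CDK9 (0.39), whereas MEPCE, the 7SK capping enzyme (-0.66), and the inhibitor gene HEXIM2 (-0.95) fell. Of the U6 end processing and LSM list 1 of 12 rose and 4 fell. USB1, the exonuclease that trims U6 ends, had 683 and 847 normalized reads in siSFPQ-2, 787 and 1115 in siSFPQ-3, against 208 and 264 in siCtrl, and rose by 1.85 on the log2 scale (adjusted p = 8.91e-06 by limma), while the LSM ring genes LSM4 (-0.81) and LSM5 (-0.53) fell. Of export, SMN complex and Cajal body genes 2 of 22 rose, the cap-binding gene NCBP1 (0.54) and STRAP (0.55), and 6 fell, among them GEMIN5, which recognizes snRNAs for Sm ring assembly (-0.83), and the helicase gene DDX20 (-0.62). Of Sm and snRNA-bound proteins 1 of 27 rose, the minor spliceosome gene RNPC3 (0.37), and 5 fell, led by SNRNP25 (-0.85), also of the minor spliceosome, and LSM11 of the U7 particle (-0.86).

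RNA polymerase III subunits and their repressor MAF1 gave 3 rises, POLR3A, POLR3G (0.79) and MAF1 (0.46), and 4 falls, among them POLR3K (-0.65). Other small RNA genes of that polymerase gave 4 rises and no fall among 8 tested rows of 7 genes (backgrounds 24.8% and 23.2%), with a median of 0.99. RN7SL2, with its high value in siSFPQ-3 replicate 1, was among those not called. RN7SL1, of the signal recognition particle, had 122 and 128 normalized reads in siSFPQ-2, 334 and 183 in siSFPQ-3, against 74.1 and 88.6 in siCtrl, and rose by 1.11 on the log2 scale (adjusted p = 0.00209 by limma), with siSFPQ-3 replicate 1 the highest library. With siSFPQ-2 alone RN7SL1 was not called (0.62, adjusted p = 0.0761 by limma). VTRNA1-2, a vault RNA gene, had 111 and 112 normalized reads in siSFPQ-2, 102 and 151 in siSFPQ-3, against 62.2 and 57.6 in siCtrl, and rose by 0.96 on the log2 scale (adjusted p = 0.0022 by limma) with all siSFPQ libraries above siCtrl.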

How the data were processed

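PRO-seq was measured in 6 libraries. Reads were handled with Bowtie2, SAMtools 1.3.1, cutadapt 1.14, UMI-tools and DESeq2 1.38.1 on the builds hg38 and dm6, per the submitters' processing notes. The sources used here do not state the annotation, the counted part of each gene, the use of strand or the treatment of reads with several matches. The signal of each feature, in normalized reads, came from the authors' deposited table, and all of its values were whole multiples of the value of 1 read (100% within 0.1 read). The authors' deposited log2 fold changes and adjusted p-values were only set beside the results. The deposited profiles along genes had no snRNA row and were not used.

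After 240 repeated lines were dropped, features with at least 10 normalized reads in at least 2 libraries (21773) entered 1 fit of 3 groups on the log2(value + 1) scale, by limma 3.58.1 (R 4.3.3, trend option), with Benjamini-Hochberg adjustment over all of them at 0.05. Fold changes on this scale understate those of low features. Alternatives included edgeR 4.0.16 and DESeq2 1.42.0 on the recovered whole reads. On simulated data for siSFPQ against siCtrl with 200 of 21773 features changed 2-fold, limma recovered 88.0% and called 9 unchanged features. The simulation gave every feature the same dispersion and set no library apart, and far more features were called in the data. These rates therefore need not carry over. The labels do not say that replicates were separate cultures, and p-values may cover only technical spread. Replicates differed by more than sampling noise (chi-square per degree of freedom 10.8 to 23.7). Spans came from RefSeq (GRCh38.p14), which matched 87 members by symbol and 3 by synonym.

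The members and gene lists were chosen with earlier results of these data known. Named were every RNU, RNVU and RN7SK member, and of the others the 5 highest, up to 8 falls and 8 rises that passed without overlap between groups, and 3 on each side of the level for testing. From each list came up to 2 genes past the threshold in each direction. Longer genes overlapping named members were added (1 of them, and 1 list gene, are not reported here), and RNU1-89P, RNU1-16P, RNU1-132P, FP325311.1, POLR3A and IL32 were named after their values were seen.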

Additional observations from a re-analysis of the deposited data

How the results depend on the processing

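With all libraries, 29 snRNA features fell and 4 rose in siSFPQ against siCtrl. The falls numbered 15 without limma's trend option and between 7 and 66 when each library was left out in turn, and the rises 2 to 4. The low end came without siCtrl replicate 2 and the high end without siSFPQ-3 replicate 1, the library singled out by these features' own values. At a level of 50 normalized reads for testing 64 features remained and 1 rose, in each of the 3 comparisons with siCtrl. With siSFPQ-2 the 33 falls and 3 rises became 10 falls without the trend option, 60 falls in a fit of the compared groups alone and 1 rise with DESeq2, and ranged from 5 to 59 falls and 1 to 4 rises without each library. With siSFPQ-3 the 13 falls and 4 rises ranged from 7 to 47 falls and 2 to 8 rises without each library. Between the siRNAs the counts without each library were 0 to 7 higher and 0 lower. In the machinery lists the 20 rises ranged from 12 to 23 and the 29 falls from 13 to 33. The pseudocounts, the scalings and edgeR kept the counts of falls and rises within 1.5 times in the comparisons with siCtrl.

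The labels tie no replicate number to a shared culture or batch, and the numbers were not taken as pairs. Differences between replicates correlated by 0.053 and 0.059 between siCtrl and each siSFPQ group and by 0.38 between the siSFPQ groups. With the replicate number as a block, 53 features fell over both siRNAs, 57 with siSFPQ-2 and 27 with siSFPQ-3, and 5 were higher and 1 lower between the siRNAs, where 0 were called without it.

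The estimates of 16 of the 107 snRNA features, none of them called, and of the longer gene LINC00623, also not called, crossed 0 when a library was left out. Among those named, the estimates ranged from -0.32 to 0.077 for RNU1-3, -0.43 to 0.078 for RNU1-28P, -0.25 to 0.061 for RNU5A-8P, -0.59 to 0.67 for RNU2-4P, -0.68 to 0.023 for AC024051.10, -1.15 to 0.18 for RNVU1-17, -0.38 to 0.030 for RNVU1-18 and -0.13 to 0.057 for LINC00623. For the families, summing copies gave log2 ratios of -0.31 for U1, -0.31 for U2, -0.54 for U4 and -0.52 for U5, against medians over copies of -0.53, -0.46, -0.64 and -0.51. The cause of these differences was not tested. Precision is limited by 2 libraries a group, by near-identical copies, and by few reads for U6, U6atac, U7 and most pseudogene copies.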
